A study of Caenorhabditis elegans with 2 samples.

Results

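The 6 Hox genes of Caenorhabditis elegans, ceh-13, lin-39, mab-5, egl-5, php-3 and nob-1, were examined for chromatin occupied by RNA polymerase II. They were taken by symbol from the Ensembl annotation, where they are 6 of 19973 protein-coding genes. For each gene, all listed regions were kept whose summit lay between 2 kb upstream of the annotated 5' end and the 3' end, which gave 25 of the 30000 regions listed for the pool of both replicates, 21 of 30000 for replicate 1 and 25 of 30000 for replicate 2. The antibody was against AMA-1, the largest subunit of the polymerase, and the samples were 2 biological replicates of whole L1 (first-stage) larvae of the wild-type strain N2, mixed in sex and of unknown age. No treatment, mutation or second stage is labelled, so the replicates formed 1 group. Values are therefore described, set beside the same count over all protein-coding genes or all regions, and not tested.

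Hox genes encode homeodomain transcription factors that give cells along the head-to-tail axis their regional identity. In the worm, ceh-13 (labial type) acts mainly in the anterior, lin-39 in the mid-body, mab-5 behind it, and egl-5, php-3 and nob-1 (Abdominal-B type) in the posterior. Each is transcribed in restricted sets of cells, while chromatin of the whole animal was sampled here. Occupancy in few cells and low occupancy per cell cannot be told apart in such samples.

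The value given for a region is the signal reported by the authors' peak caller against a control, and is not a read count. Depth is unknown, because read numbers are not given in the sources used. Median signal was 9.56 in the pooled list, 6.42 in replicate 1 and 4.53 in replicate 2, so the lists are set side by side and compared by the percent of entries with a lower signal. The lowest listed signals were 5.09, 3.11 and 2.22, and a gene with no region lies below what each list records. The pooled list is labelled as peaks and background, the input to a reproducibility analysis. An entry in it is therefore not by itself a called peak, and 35.9% of its regions had a deposited q-value of 0.05 or less. The replicate lists also hold 30000 regions each, of which 44.1% in replicate 1 and 40.8% in replicate 2 met that limit. A region listed in both replicates is therefore not by itself a replicated peak. A thresholded consensus list of 1328 regions, made by the authors from both replicates and their pool, started at a signal of 34.3. Of 12 marker genes for the main tissues of a larva, 8 had a pooled region in the same window, beside 48.9% of protein-coding genes. For body muscle they were unc-15 (22.5) and myo-3 (12.9), and for epidermis elt-3 (21.1) and dpy-7 (5.42). For neurons they were rab-3 (13.8) and unc-119 (10.9), and for pharynx pha-4 (13.7) and myo-2 (6.34). The intestinal genes elt-2 and ges-1 had replicate regions only, of at most 4.86, and the germline genes pgl-1 and glh-1 had none in any of the 3 lists.

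No Hox gene held a consensus region. The count was 0 of 6, beside 6.49% of all protein-coding genes (1296 of 19973). By a rule of thumb (3 counts of 6) such a count leaves room for a share of up to 50%, a limit that is coarse for 6 genes. In the pooled list, 5 of the 6 had a region, beside 48.9% of protein-coding genes, and the same 5 had a region in both replicate lists, beside 41.6%. The exception was php-3. All 6 Hox windows, of 4382 to 9992 bp, were longer than the median protein-coding window of 4027 bp, and the part of window length in these counts was not tested. The highest pooled signals were 19.5 at ceh-13, 13.3 at lin-39, 12.4 at mab-5, 6.93 at egl-5 and 5.61 at nob-1. Among genes with any pooled region the median of the highest signal was 14.8, so ceh-13 lay above that median and the other 4 below it. At a deposited q-value of 0.05 or less, a limit chosen after the values were seen, ceh-13, lin-39 and mab-5 kept a region, which is 3 of 6 genes beside 30.3% of all. By region, 5 of the 25 pooled Hox regions met that limit, beside 35.9% of all pooled regions.

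**Figure D1:**
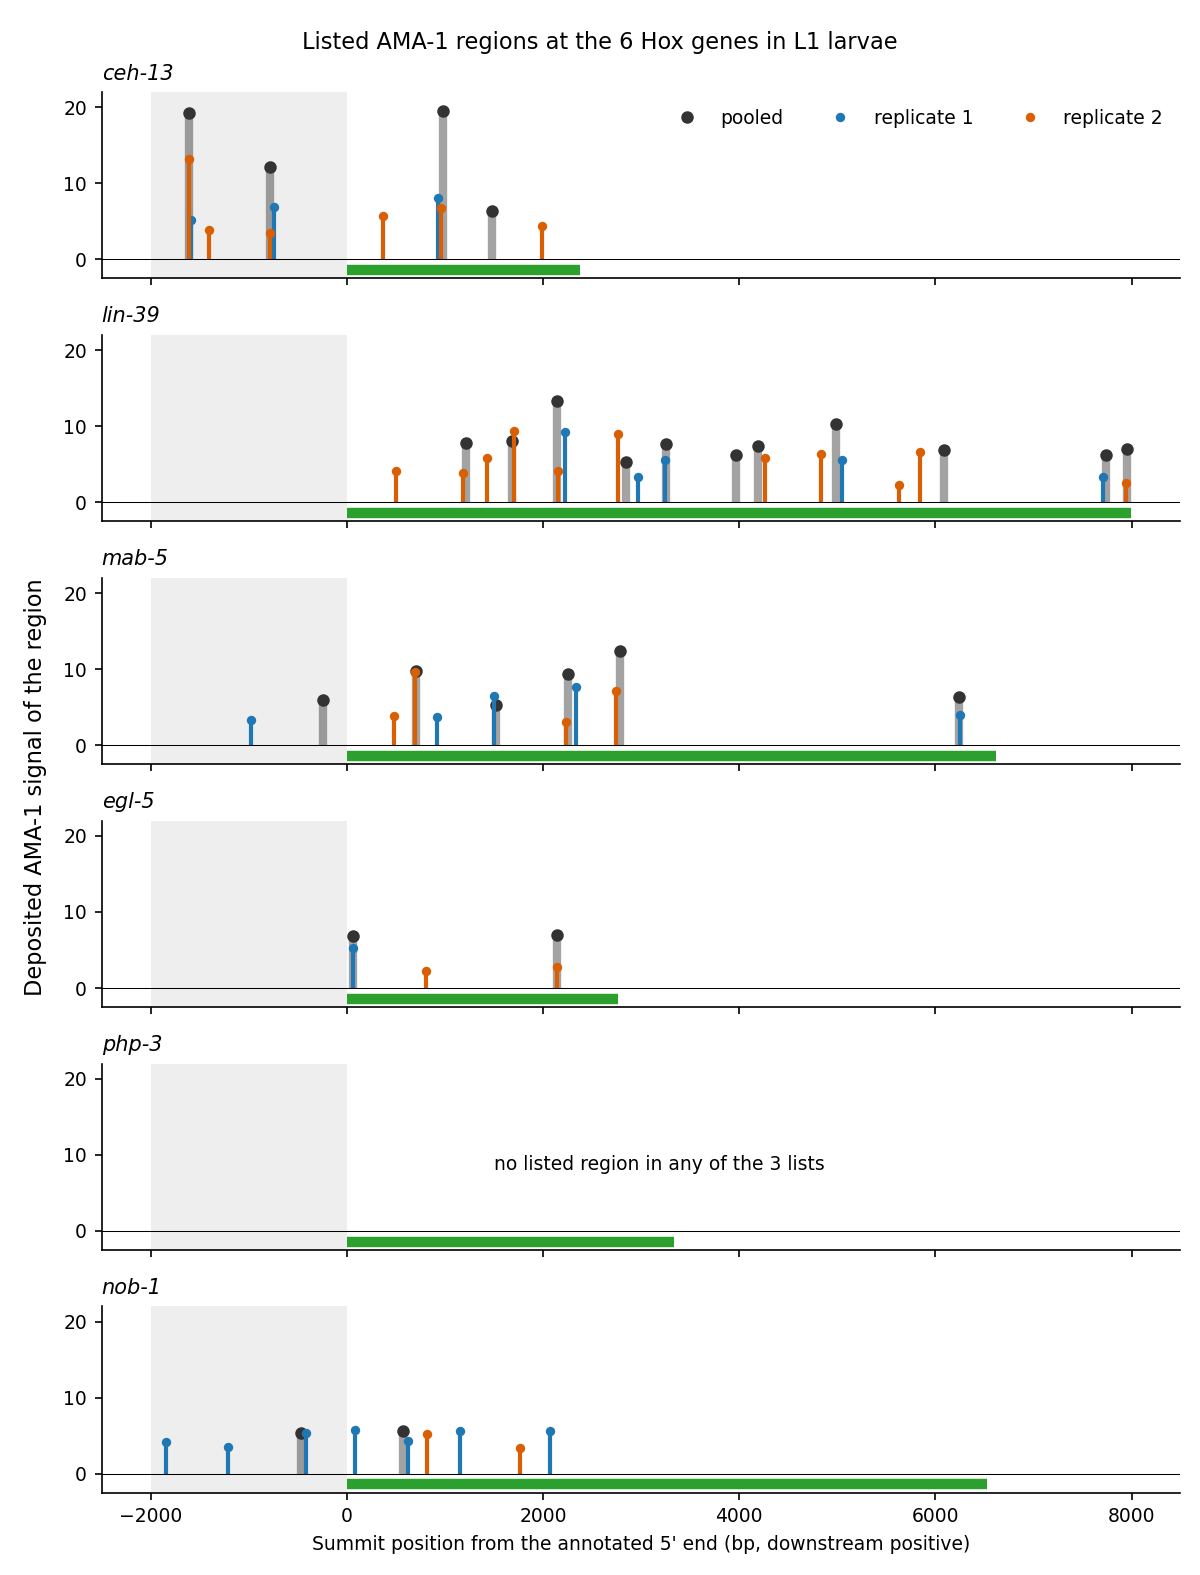
Deposited AMA-1 signal of each listed region (vertical axis, no unit) against the position of its summit from the annotated 5' end in bp (horizontal axis) for the 6 Hox genes. Wide grey bars with black points are the pooled list, blue and orange the 2 replicates, the shaded strip the 2 kb upstream and the green bar the gene. The tallest bars, 19.5 and 19.3, are at ceh-13, lin-39 carries 11 pooled regions along its length, and php-3 has none.

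The anterior gene ceh-13 (WBGene00000437, chromosome III, 7555660 to 7558041, plus strand, build ce11) had the highest pooled signals of the 6. It had 4 pooled regions in a window of 4382 bp. The strongest, with a signal of 19.5 and a deposited q of 0.00173, had its summit 980 bp downstream of the 5' end in intron 1. The replicates gave 8.09 and 6.79 there, for replicates 1 and 2. The second, of 19.3 (q = 0.00191), had its summit 1607 bp upstream, and the replicates gave 5.21 and 13.2. The region 786 bp upstream had 12.1 (q = 0.0479), with 6.82 and 3.40. All 3 were therefore listed in both replicates, with the intronic region first in replicate 1 and the far upstream region first in replicate 2. The deposited q was 0.143 for the far upstream region in replicate 1. It was 0.235 for the region 786 bp upstream in replicate 2. The fourth pooled region, of 6.30 in the same intron, overlapped no region of either replicate. No pooled summit lay within 500 bp of the 5' end, and of the replicate summits only 1, of 5.73 in replicate 2, did so, 365 bp downstream in intron 1. These are 201 bases about each of the 3 shared summits, on the gene's strand, shown because these regions were listed in both replicates and had a q of 0.05 or less in the pool. Capitals mark TGATNNAT or its reverse complement, the composite site bound by Hox proteins together with PBX-type partners.
ceh-13 intron 1, chrIII:7556540-7556740: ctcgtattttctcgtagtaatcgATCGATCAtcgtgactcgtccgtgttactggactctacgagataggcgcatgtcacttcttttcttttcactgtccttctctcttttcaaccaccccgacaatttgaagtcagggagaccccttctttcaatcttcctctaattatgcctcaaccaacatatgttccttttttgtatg
ceh-13 far upstream, chrIII:7553953-7554153: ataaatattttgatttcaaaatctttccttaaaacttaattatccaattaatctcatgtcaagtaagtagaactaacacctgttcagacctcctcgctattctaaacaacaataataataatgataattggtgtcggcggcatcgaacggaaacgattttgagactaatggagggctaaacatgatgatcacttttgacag
ceh-13 near upstream, chrIII:7554774-7554974: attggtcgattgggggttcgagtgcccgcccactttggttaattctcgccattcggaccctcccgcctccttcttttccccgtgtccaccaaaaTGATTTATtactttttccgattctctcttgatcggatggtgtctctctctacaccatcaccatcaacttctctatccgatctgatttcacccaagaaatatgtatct

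Past the annotated 3' end of ceh-13 lay a region stronger than any inside the window. Its summit was 38 bp beyond the end, at 7558079, so the window rule left it out. It had a pooled signal of 20.9 and 16.4 in replicate 2, and no region of replicate 1 overlapped it. No other protein-coding window held it. The reverse case was lin-39, whose last pooled region, of 7.02, had its summit 38 bp inside the 3' end. The nearest pooled summit outside the upstream edge was 82 bp out at ceh-13 (7.11), 358 bp out at mab-5 (6.66) and 130 bp out at nob-1 (7.88). The nob-1 value exceeded both pooled signals inside that gene's window.

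Along lin-39 the number of regions differed between the lists. This gene (WBGene00003024, chromosome III, 7528641 to 7536632, minus strand) acts in the mid-body, where it is needed for the vulval precursor cells. Its window of 9992 bp held 11 pooled regions, or 1.10 per kb, where the median was 0.584 per kb over protein-coding genes with a region. The signals ran from 5.30 to 13.3 with a median of 7.42, and 2 of the 11 were above the median of the pooled list. Replicate 1 listed 5 regions, or 0.50 per kb beside a median of 0.60 for that list, and 1 was above the list's median signal. Replicate 2 listed 11, and 6 of those were above the median signal of its list. The highest region had its summit in coding exon 2, 2139 bp from the gene's 5' end but 312 bp downstream of the 5' end of its shorter annotated transcript. It had a q of 0.0285, and the replicates gave 9.20 and 4.16. A region of 8.02 lay 145 bp upstream of the same inner 5' end. It was matched by 9.41 in replicate 2, the highest lin-39 value there, and by no region in replicate 1. The 2 kb upstream of the longer transcript held no summit in any of the 3 lists. The exon 2 window, shown as the strongest lin-39 region, holds no match to the composite site.
lin-39 exon 2, chrIII:7534393-7534593: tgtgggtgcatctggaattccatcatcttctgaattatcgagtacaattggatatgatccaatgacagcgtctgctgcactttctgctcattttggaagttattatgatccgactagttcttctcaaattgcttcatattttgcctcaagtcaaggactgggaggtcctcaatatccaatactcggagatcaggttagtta

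At mab-5 (WBGene00003102, chromosome III, 7776835 to 7783454, minus strand), which directs posterior migration of the QL neuroblast's descendants, the strongest regions lay in introns. Of its 6 pooled regions, the highest had a signal of 12.4 (q = 0.0435) and a summit 2788 bp into the gene in intron 3. It was matched by 7.12 in replicate 2 and by none in replicate 1. The next, of 9.79 in intron 2 and 705 bp from the 5' end, was matched by 3.75 and 9.61. A region of 9.40, 2259 bp into the gene, was matched by 7.65 and 3.05. Both replicates thus had regions at the latter 2, and the order of those 2 was opposite in the replicates. The region nearest the 5' end, 238 bp upstream, had 5.91 and was matched in neither. Both sequences below are from mab-5, the first about its strongest summit and the second about the summit nearest its 5' end.
mab-5 intron 3, chrIII:7780566-7780766: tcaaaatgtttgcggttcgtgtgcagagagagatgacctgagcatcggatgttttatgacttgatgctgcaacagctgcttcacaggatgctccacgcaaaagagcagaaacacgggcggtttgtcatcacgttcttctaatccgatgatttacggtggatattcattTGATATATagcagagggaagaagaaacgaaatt
mab-5 upstream, chrIII:7783592-7783792: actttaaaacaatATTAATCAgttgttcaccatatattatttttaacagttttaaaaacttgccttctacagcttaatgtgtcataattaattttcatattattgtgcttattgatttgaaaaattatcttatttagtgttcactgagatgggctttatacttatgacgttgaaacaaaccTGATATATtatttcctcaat

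The posterior gene egl-5 (WBGene00001174, chromosome III, 7814374 to 7817141, plus strand) had 2 pooled regions, and no place in the gene was listed in both replicates. One, of 6.83, had its summit 67 bp from the 5' end in the 5' UTR and was matched by 5.27 in replicate 1 alone. The other, of 6.93 in the 3' UTR, was matched by 2.75 in replicate 2 alone. A further region of 2.30, in intron 2, was listed only for replicate 2. All values were below the median of their own list. The deposited q was 0.263 for the pooled 5' UTR region and 0.257 for the pooled 3' UTR region. The non-coding gene C08C3.10 lies inside egl-5 on the other strand, and no listed summit fell in it.

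The adjacent pair php-3 and nob-1, which act in the posterior of the embryo, lies 4257 kb from egl-5, with 236 bp between the 2 genes. No region was listed for php-3 (WBGene00004024, chromosome III, 12074218 to 12077556, minus strand) in the pool or in either replicate. Of the 31-base words in its window, 91.2% occur once in the genome, and the other 5 genes had 95.9 to 100%. For nob-1 (WBGene00003779, chromosome III, 12077793 to 12084316, minus strand) the pooled list held 2 regions, of 5.61 in intron 2 and 5.37 at 469 bp upstream. Their deposited q was 0.354 and 0.378. Replicate 1 listed 7 regions, from 3.55 to 5.70, none above the median of its list, and replicate 2 listed 2, of 5.21 and 3.37. The highest value of replicate 1 was in coding exon 1, 79 bp from the 5' end. All nob-1 summits lay between 1844 bp upstream and 2073 bp downstream of the 5' end, so the remaining 3' part of the gene held none.

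**Figure D2:**
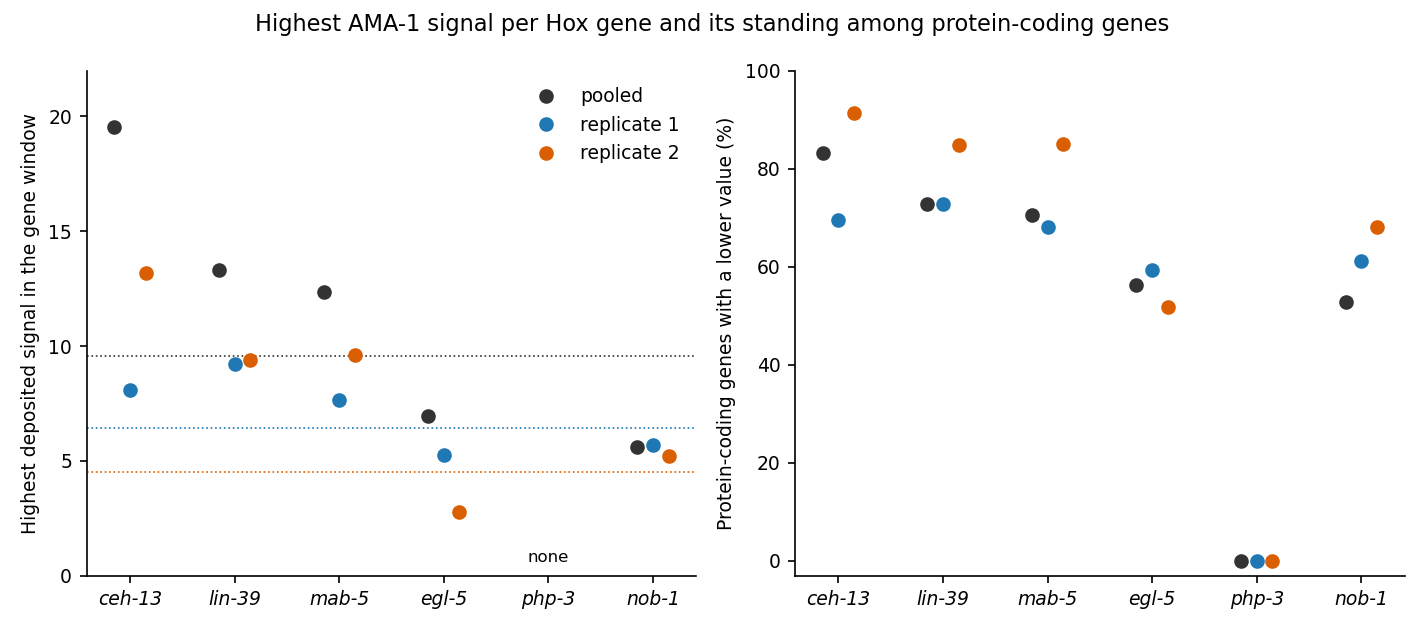
Left, the highest deposited signal in each Hox gene's window in the pooled list and the 2 replicate lists, with each list's median signal as a dotted line of the same colour. Right, the percent of 19973 protein-coding genes with a lower highest signal in that list. Points for ceh-13, lin-39 and mab-5 stand above those for egl-5 and nob-1 on the left in each list, and php-3 has no region.

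The pooled order, ceh-13, lin-39, mab-5, egl-5, nob-1 and php-3, ran from anterior to posterior genes, but the replicates kept only part of it. The highest signals in replicates 1 and 2 were 8.09 and 13.2 at ceh-13. They were 9.20 and 9.41 at lin-39 and 7.65 and 9.61 at mab-5, so these 3 genes had overlapping values and lin-39 led in replicate 1. Those of egl-5 were 5.27 and 2.75, and those of nob-1 were 5.70 and 5.21, so nob-1 was above egl-5 in both. Each of the first 3 genes was above egl-5, nob-1 and php-3 within each replicate. Against all protein-coding genes, the percent with a lower pooled value was 83.2 for ceh-13, 72.7 for lin-39, 70.6 for mab-5, 56.3 for egl-5 and 52.8 for nob-1. The 51.1% of protein-coding genes with no pooled region make up most of the share below egl-5 and nob-1. In replicate 1 these percents were 69.6, 72.8, 68.1, 59.4 and 61.1, and in replicate 2 they were 91.3, 84.7, 85.1, 51.8 and 68.2.

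The windows differed in length, from 4382 to 9992 bp, so the summed signal per kb was also taken. In the pooled list it was 13.1 at ceh-13, 8.62 at lin-39, 5.69 at mab-5, 2.89 at egl-5, 1.29 at nob-1 and 0 at php-3. That order is the same as by the highest signal. In replicate 1 the values were 4.59, 2.69, 2.92, 1.11, 4.02 and 0 in the same sequence of genes, which put nob-1 second. Replicate 2 gave 8.53, 5.99, 2.74, 1.06, 1.01 and 0. With only summits within 500 bp of an annotated transcript 5' end, the order changed, since lin-39 kept 13.3 while mab-5 had 5.91 and ceh-13 had no region.

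Most pooled summits of the Hox windows lay inside a gene, as did most summits of other windows. Between the ends of a protein-coding gene there were 21 of the 25, beside 75.9% of all pooled summits in protein-coding windows. Of the 25, 14 were in introns, 4 upstream, 4 in 3' UTRs, 2 in coding exons and 1 in a 5' UTR. Within 500 bp of a protein-coding transcript's 5' end there were 5 of 25, beside 37.8% of all pooled summits in protein-coding windows. Such distances are from annotated 5' ends, which in this species often mark a trans-splice site and not the start of transcription. Of the 25, 11 were from lin-39 and 6 from mab-5, with windows of 9992 and 8620 bp beside a median of 4027 bp. The part of window length in the 5 of 25 was not tested. The pooled 3' UTR region of mab-5 was also in the window of bath-15, its neighbour 801 bp away, and no other pooled Hox region was in a second protein-coding window.

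Agreement between replicates, region by region, was partial. Of the 25 pooled Hox regions, 11 were overlapped by a region of both replicates, beside 56% of all pooled regions. Replicate 1 overlapped 16 of the 25, beside 80.2% of all, and replicate 2 overlapped 18, beside 71.9%. The 11 were 3 of 4 at ceh-13, 5 of 11 at lin-39, 2 of 6 at mab-5, 0 of 2 at egl-5 and 1 of 2 at nob-1. A pair of lin-39 regions at the 3' end shared 1 region in each replicate (3.31 and 2.59). Taken directly, 12 of the 21 replicate 1 regions met a replicate 2 region, beside 57%, and 12 of the 25 replicate 2 regions met a replicate 1 region, beside 56%.

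The composite site TGATNNAT, searched on both strands in the 201 bases about each pooled summit, was present in 9 of the 25 Hox windows. It was present in 15.1% of all 30000 pooled windows. The median share of A and T was 65.7% in the Hox windows and 62.7% in all, and its part in the difference was not tested. A match describes the letters only and is not evidence that a protein binds there.

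The stretches between lin-39 and ceh-13 and between mab-5 and egl-5 held fewer pooled regions per kb than the windows of the genes on either side. Between the windows of lin-39 and ceh-13, 15.03 kb held 5 pooled regions, or 0.333 per kb, and the highest, of 7.96, had its summit in the non-coding gene linc-57. The highest in the replicate lists lay nearer to ceh-13, 268 bp outside its window in replicate 1 (8.11) and 585 bp outside it in replicate 2 (8.63). The first of these was about the same as the highest value inside the ceh-13 window in replicate 1, of 8.09. Between the windows of mab-5 and egl-5, 26.9 kb held 5, or 0.186 per kb, with 6.72 as the highest. No consensus region lay in either stretch. For comparison, the Hox windows had 0.913 pooled regions per kb at ceh-13, 0.696 at mab-5, 0.419 at egl-5 and 0.235 at nob-1.

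Genes that act with the Hox genes covered a wider range. Of 5 genes listed as TALE-type cofactors of Hox proteins, 4 had a pooled region, beside 48.9% of all protein-coding genes. Of these, psa-3 (7.45) was also counted among the genes downstream of Hox genes. The Meis-type gene unc-62 held a consensus region (34.7, with 20.7 and 21.4 in the replicates), and the Pbx-type gene ceh-20 had 24.97 (14.6 and 8.25), both above every pooled Hox value. The Pbx-type gene ceh-40 had no region in any list. Median highest signal was 7.45 for these 5 genes, 9.65 for the 6 Hox genes and 0 for all protein-coding genes.

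All 14 Polycomb-like and other chromatin regulators linked to Hox expression had a pooled region, beside the 48.9% of all protein-coding genes, with a median highest signal of 13.1. The range was 5.91 at jmjd-3.1, which encodes a histone H3K27 demethylase, to 39.5 at ash-2, whose product belongs to H3K4 methyltransferase complexes. The ash-2 region was a consensus region and also in the windows of Y17G7B.20 and Y17G7B.21. The second highest was egl-27 (22.7). Of 13 transcription factor and Wnt pathway genes that act upstream of Hox genes, 10 had a pooled region, beside the same 48.9%, with a median of 10.2. The ETS factor gene lin-1 held a consensus region (51.8) and the zinc finger gene sem-4 had 17.5. No pooled region was listed for vab-7, the even-skipped type gene, for bar-1, a beta-catenin gene, or for mig-14, needed for Wnt secretion.

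Genes known to act downstream of Hox genes had a pooled region in 4 of 8 cases, close to the 48.9% of all protein-coding genes, with a median of 3.73. None had a consensus region, beside 6.49% of all. The GATA factor gene egl-18 (12.95) and mig-13 (12.1), which guides neuroblast migration, were highest. The Twist-type gene hlh-8, the cell death gene egl-1, the atonal-type gene lin-32 and the FGF gene egl-17 had no pooled region. Among 93 homeobox genes outside the cluster, 35 had a pooled region and 4 a consensus region, counts to be read against the same 48.9% and 6.49%. Those 4 were ceh-8 (92.8), ceh-38 (70.1), ceh-5 (53.6) and unc-62. The top regions of the first 3 were also in the window of another protein-coding gene. The highest ceh-8 values were 5.56 in replicate 1, below that list's median of 6.42, and 34.8 in replicate 2. In replicates 1 and 2, ceh-38 had 48.2 and 28.6, and ceh-5 had 27.4 and 23.3. Of 7 protein-coding genes next to a Hox gene, 4 had a pooled region, again beside 48.9%, led by lig-4 (51.7, also in the windows of cux-7 and C07H6.2) and egl-45 (17.9), while cest-12, cyk-7 and zyg-8 had none.

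**Figure D3:**
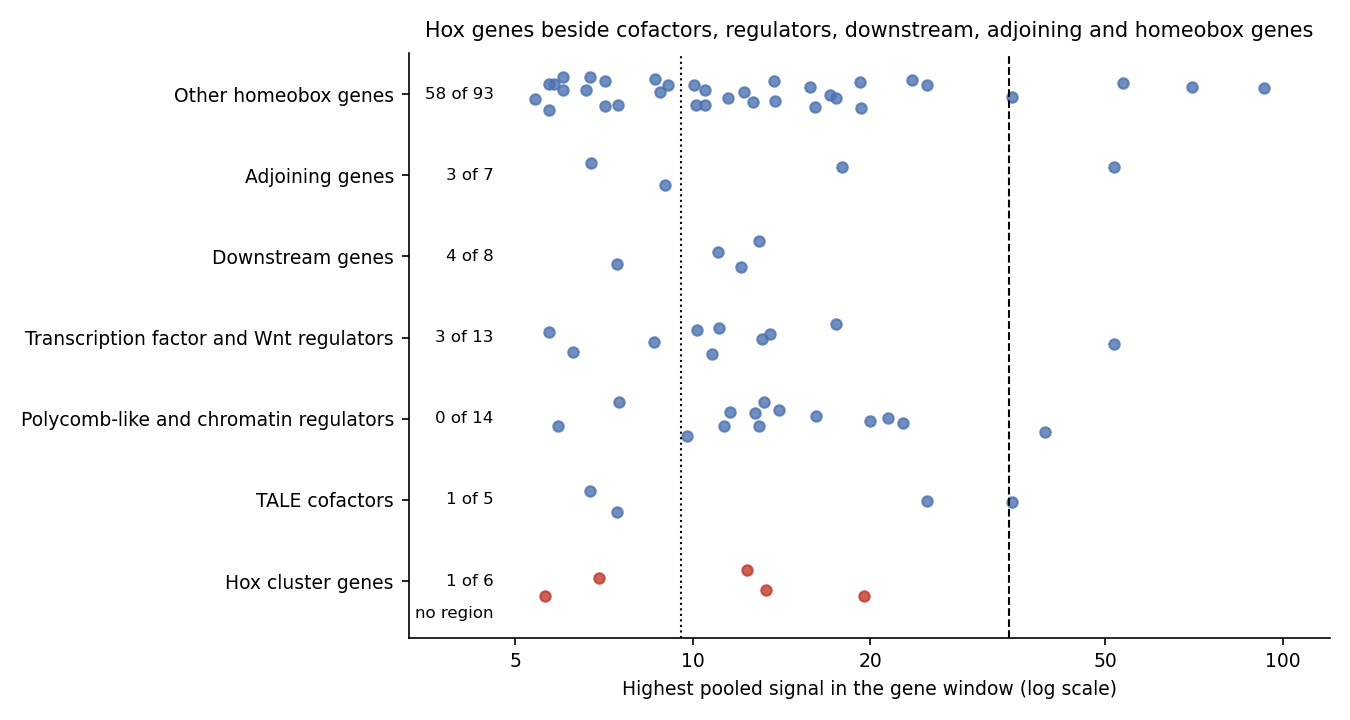
Highest pooled AMA-1 signal in the gene window (log scale, no unit) for each gene of 7 lists, 1 point per gene, with vertical scatter only to part the points. Numbers at the left count genes with no pooled region, the dotted line is the pooled median of 9.56 and the dashed line the lowest consensus signal of 34.3. All 5 Hox points lie left of the dashed line, between 5.61 and 19.5, and genes such as unc-62, ash-2 and lin-1 lie right of it.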

How the data were processed

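Deposited lists of AMA-1 regions on build ce11 were used: 1 per replicate, 1 for the pooled alignments and 1 thresholded by an irreproducible discovery rate analysis. The pooled list is labelled as peaks and background that served as input to that analysis. Per the deposited text files, the replicate and pooled lists were derived from alignments and a control. The sources used do not name the peak caller, its version or the threshold, nor the number of reads. The signal and the −log10 q-value of each region are the authors' own and were not rescaled. The lists on ce10 were not used, because the annotation is on ce11. Most regions have 1 common width, 340 bp in the pool and replicate 1 and 350 bp in replicate 2.

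Genes came from Ensembl release 115 on WBcel235, the same assembly as ce11, and sequences from the RefSeq genome of that assembly. No region ran past a chromosome end. A summit was the region's start plus the deposited offset. A gene's level in a list was the highest signal in its window, and a summit could serve several genes. A pooled region was matched to a replicate where the intervals shared at least 1 bp, and the strongest match was printed. All 6 members are always named, and of each gene list those with a consensus region, the 2 highest and the lowest. Members and lists were chosen with earlier results of these data known. Other genes named are adjoining genes, tissue markers, genes that share a region or psa-3, which is in 2 lists. The restriction by q-value was added later. Alternatives were other windows, interval overlap, each replicate alone, other rankings and closer summits. Window assignment was tested on simulated data. Python 3.11.15, numpy 2.4.6, pandas 2.3.3 and matplotlib 3.10.9 were used.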

Additional observations from a re-analysis of the deposited data

How the results depend on the processing

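The count of Hox genes with a consensus region was 0 under every window, with interval overlap and with stronger consensus regions only. These settings could only repeat the 0. The narrower ones are parts of the main setting, and the nearest consensus region lay 7.80 kb outside any Hox window. The count was also 0 with the equally many highest regions of either replicate (0 to 0). With the deposited q-value limit in place of the consensus, an alternative chosen after seeing the data, the count was 3. The count with a region in both replicate lists was 6 with 5 kb upstream, where php-3 gained only summits inside nob-1 and no pooled region. It was 1 with only summits within 500 bp of a transcript 5' end. The share of all protein-coding genes is not given here for these counts, so neither is set against other genes. With regions above the median of their list the count was 3, beside 27.3% of protein-coding genes. The median percent of protein-coding genes with a lower highest signal was 63.5. It was 64.6 in replicate 1 alone and 76.5 in replicate 2 alone, 73.1 by summed signal, which grows with window length, and 25.3 among genes with a pooled region, where php-3 counts as lower than all. Pooled regions matched in both replicates fell from 11 to 6 with summits within 150 bp, and the share of all pooled regions under that rule is not given here. Under other windows or interval overlap, 20 highest pooled signals of single genes stayed within the spread between replicates, and 4 moved beyond it. The 20 include php-3, which has no pooled region under any setting, and values that did not change because the same top region was kept. The median signals of the replicate lists differ, so that spread is a rough yardstick. No paired analysis was possible because both samples form 1 group. With 2 replicates and no read numbers, the spread of each value is poorly known.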

Other observations

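The consensus region nearest to each Hox gene lay well outside its window. It was 7.80 kb from that of lin-39 (51.7, in the windows of cux-7, lig-4 and C07H6.2) and 15.1 kb from that of ceh-13 (38.0, in the windows of lpd-7 and the ribosomal protein gene rpl-9). For mab-5 it was 47.6 kb away, at ncl-1 (34.8), and for egl-5 37.6 kb away, at the ribosomal protein gene rpl-35 (70.4). The one nearest to php-3 and nob-1, at brp-1 (34.4), was 55.4 and 59.0 kb from their windows.

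Genes whose highest signals in the 2 replicates were most like those of a Hox gene were found by the distance between the pairs of log2 values, 1 value per replicate. The nearest protein-coding genes were kdin-1 for ceh-13 (8.23 and 13.3, distance 0.028), rig-4 for lin-39 (9.15 and 9.48, 0.014), pat-3 for mab-5 (7.75 and 9.63, 0.018), npr-3 for egl-5 (5.15 and 2.78, 0.035) and mrps-11 for nob-1 (5.64 and 5.20, 0.015). Between 15 and 36 genes lay within 0.1 of each, so the nearest one has little standing over the next. Among homeobox genes outside the cluster, the nearest were ceh-79 to ceh-13 (distance 0.74), hmbx-1 to lin-39 (0.29) and ceh-37 to mab-5 (0.39). They were ceh-10 to egl-5 (0.18) and ceh-100 to nob-1 (0.18). None of the 93 lay within 0.1, beside 15 to 36 of all 19973 protein-coding genes. With so small a share over all genes, that absence does not set the homeobox genes apart. With no region in any list, php-3 has no such neighbour.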
